A study of Glycine max with 4 samples.

Results

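The genes described here encode the abundant proteins of the soybean seed: 5 glycinins, 3 beta-conglycinins, the seed lectin Le1 and the Kunitz trypsin inhibitor KTI3. They were chosen by identifier, 10 of 56044 genes in the count table, and not by a cut on a measured value. Earlier results of these data were known when they were chosen. Their names come with that choice, because the count table gives identifiers only. The RefSeq gene table used here (assembly Glycine_max_v4.0) holds none of these identifiers. It does place the genes with the symbols GY1 to GY5, LE1 and KTI3 on the chromosomes that the digits before the G of the identifiers give, for 7 of 7 symbols, and lists 4 genes with a CG (conglycinin) symbol or synonym on chromosome 20.

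Glycinin is the legumin-type globulin of soybean and beta-conglycinin the vicilin-type globulin; together they are the main protein reserve that the embryo lays down in storage vacuoles and that the seedling later digests. Le1, or soybean agglutinin, binds N-acetylgalactosamine, and KTI3 blocks trypsin. All are known for strong transcription in the maturing embryo, under seed regulators such as LEC1, ABI3 and FUS3. The storage globulins are textbook markers of seed tissue, while lectin and Kunitz inhibitor genes can also be transcribed at low levels in vegetative organs.

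RNA was sequenced from shoot tips of 5 cm, with immature trifoliate leaves, of soybean cultivar Thorne grown in a greenhouse for 1 month. The tagged plants (T162821 and T162822, n = 2) were transgenic and carried the mmPing20F activation tag, a modified rice mPing transposon, at position 2785626 of chromosome 8. Of the untagged plants (n = 2), the first (T162845) was transgenic with the transposase construct and without that insertion, and the second was untransformed Thorne. Each library came from 1 plant, each group holds few plants, and the design text writes the name of the transgenic untagged plant with 1 digit more than the sample label. The 3 transgenic plants and the 1 untransformed plant form a second contrast given by the labels. The libraries held 49210060 and 27900266 counts in the tagged plants, 30958755 in the transgenic untagged plant and 34186179 in untransformed Thorne. The untransformed library stood apart from the other 3: chi-square per degree of freedom over genes was 242 to 314 in its pairs with them, and 16.8 to 24.6 in the pairs among those 3. Markers of the shoot tip or of other organs could not be checked, since no table used here pairs the identifiers with names.

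The seed protein genes were at or near 0 in the 3 transgenic shoot tips and showed a trace of glycinin and KTI3 reads in the untransformed one. Summed over the 10 genes there were 2 and 1 counts in the tagged plants and 1 count in the transgenic untagged plant, against 90 counts in the untransformed plant. Scaled to 1000000 counts per library (CPM) this was 0.0406 and 0.0358 in the tagged plants and 0.0323 in the transgenic untagged plant, against 2.63 in the untransformed plant. The exact Poisson 95% interval of the last value was 2.12 to 3.24 CPM, and the highest upper bound among the transgenic libraries was 0.2 CPM. These intervals cover counting error only and say nothing of the spread between plants. A gene is called detected below when it had over 3 counts, the number that a count of 0 still allows, which is 0.061 to 0.108 CPM in these libraries as a working limit (the exact upper bound of a count of 0 is 0.075 to 0.132 CPM). By that limit 0, 0 and 0 of 10 genes were detected in the transgenic libraries (tagged 1, tagged 2 and the transgenic untagged plant), against 4 of 10 in the untransformed library: Gy1, Gy4, Gy5 and KTI3. The other 6 genes, Gy2, Gy3, Le1 and all 3 beta-conglycinins, were not detected in any library at this depth. In whole tissue, fewer cells of a type and less RNA per cell cannot be told apart.

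**Figure D1:**
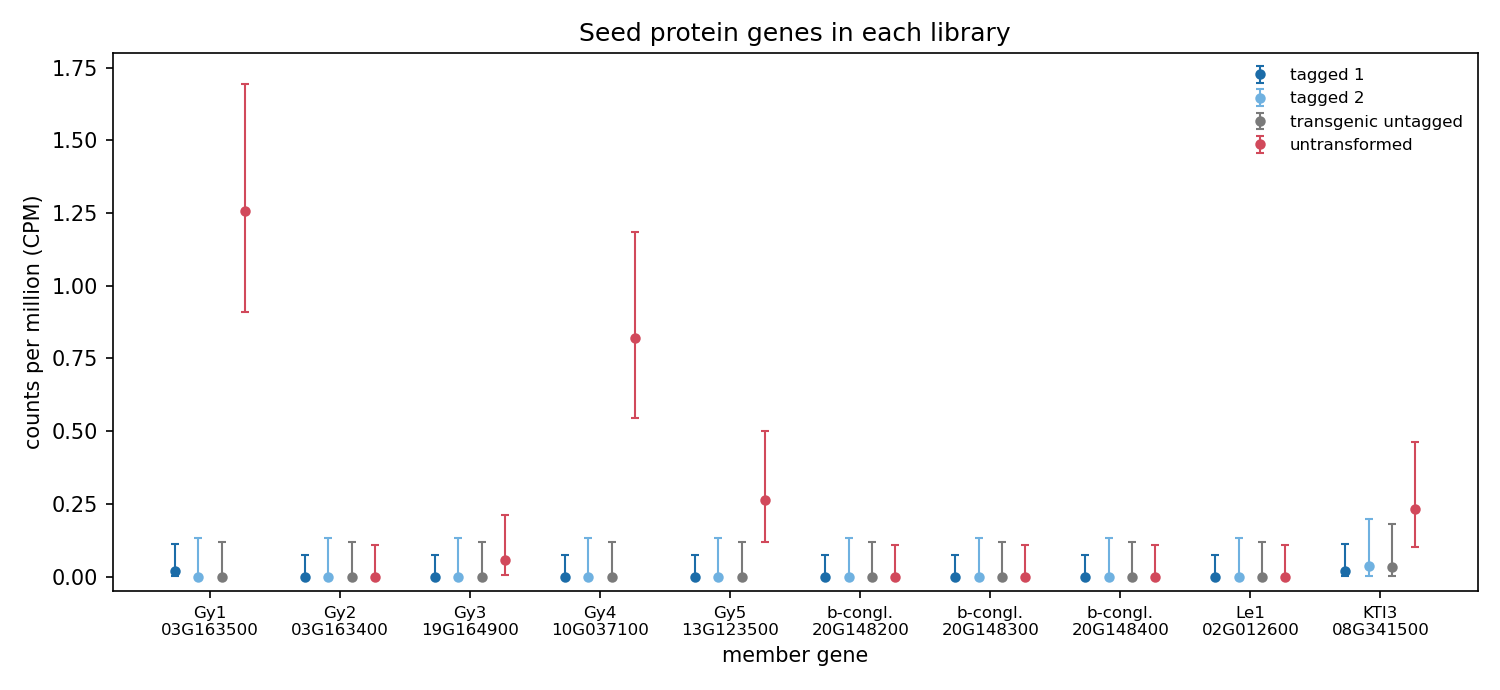
CPM (counts scaled by library total) of the 10 seed protein genes in each of the 4 libraries, 1 plant each; points are the measured values and bars the exact Poisson 95% interval, which covers counting error only. In the untransformed plant Gy1 stands at 1.26, Gy4 at 0.819, Gy5 at 0.263 and KTI3 at 0.234 CPM, and no point of the transgenic plants is above 0.0358 CPM.

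Among the glycinins, Gy1 had the most counts. Gy1 (Glyma.03G163500, chromosome 3), which encodes an acidic-basic glycinin subunit of the first glycinin group, had 1 and 0 counts in the tagged plants and 0 in the transgenic untagged plant, against 43 in the untransformed plant. Its level was 0.0203 CPM in tagged 1 and 1.26 CPM (0.91 to 1.69) in the untransformed plant. From summed counts the ratio of transgenic to untransformed plants was 0.00736, with a counting interval of 1.8e-04 to 0.0432. Only the untransformed library was high, and even there 57.4% of all genes had more counts than Gy1.

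Gy4 (Glyma.10G037100, chromosome 10), of the second glycinin group, was second in counts. It had 0 and 0 counts in the tagged plants and 0 in the transgenic untagged plant, against 28 in the untransformed plant, or 0.819 CPM (0.544 to 1.18). Setting the 3 transgenic libraries together at the floor of 3 counts, Gy4 was 29.5-fold lower in transgenic plants. This fold leaves out the counting error of the 28 counts and is not a lower bound. Gy5 (Glyma.13G123500, chromosome 13), also of the second group, had 0, 0 and 0 counts in the transgenic libraries, against 9 in the untransformed library, 0.263 CPM (0.12 to 0.5). On the same floor it was 9.48-fold lower in transgenic plants, again without the counting error of its 9 counts.

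The remaining glycinins gave no detectable signal. Gy3 (Glyma.19G164900, chromosome 19), of the first group, had 0, 0 and 0 counts in the transgenic libraries and 2 in the untransformed library, under the detection limit, so no fold is given. Gy2 (Glyma.03G163400), whose identifier is the one before that of Gy1, had 0 counts in all 4 libraries, which allows up to 0.061 and 0.108 CPM in the tagged plants, 0.0969 CPM in the transgenic untagged plant and 0.0878 CPM in untransformed Thorne. Gy1, Gy2 and Gy3 are close copies in sequence. How the counting treated reads that match several copies is not given in the sources used here, so the split of reads among these 3 genes is uncertain. Counts of different genes were not scaled by length, and their order is an order of counts, not of transcript levels.

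The beta-conglycinins gave no counts in any plant. Glyma.20G148200, Glyma.20G148300 and Glyma.20G148400, which carry consecutive numbers on chromosome 20, each had 0 counts in all 4 libraries, at the same limits as Gy2. Summed over the 3 genes the untransformed library thus had 0 beta-conglycinin counts beside 82 glycinin counts. These genes too are close copies of each other, and reads shared among them may not have been counted. Le1 (Glyma.02G012600, chromosome 2) had 0 counts in all 4 libraries.

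KTI3 (Glyma.08G341500, chromosome 8) was the only member with a count in every library. It had 1 and 1 counts in the tagged plants and 1 in the transgenic untagged plant, against 8 in the untransformed plant. Its levels were 0.0203 and 0.0358 CPM in the tagged plants and 0.0323 CPM in the transgenic untagged plant, against 0.234 CPM (0.101 to 0.461) in the untransformed plant. The ratio of transgenic to untransformed plants was 0.119, with a counting interval of 0.0203 to 0.494. The single counts in the transgenic plants lie under the detection limit. At 1 count each, no order among the transgenic plants can be read.

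The study's own comparison, tagged against untagged plants, could not be made for these genes in the main test. edgeR's quasi-likelihood test kept 38824 genes after its filter on low counts, and 0 of the 10 members passed that filter. Over all genes tested, tagged plants had 0% called higher and 0% called lower at the adjusted threshold of 0.05; at an unadjusted p under 0.05 there were 444 genes, and DESeq2 called 6 higher and 26 lower. Without the filter, 5 members could be tested, and 0 passed. Gy1, with 1 and 0 counts in tagged plants against 0 and 43 in untagged plants, then had a log2 fold change of -5.53 ± 2.51 (SE) and an edgeR adjusted p of 0.943. KTI3, with 1 and 1 counts in tagged plants against 1 and 8 in untagged plants, had -2.36 ± 1.55 and an edgeR adjusted p of 0.943. DESeq2 gave 2 of 5 tested members an unadjusted p under 0.05, both lower in tagged plants, beside 2038 of 47796 genes in all. By DESeq2, 0 members were past the adjusted threshold. For Gy1, Gy4, Gy5 and KTI3 the 2 untagged plants were the more unlike pair: the transgenic one was as low as the tagged plants. Without the untransformed plant, a single untagged plant is left, 0 members could be tested, and the counts summed over the 10 genes were 2 and 1 in tagged plants against 1.

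The labels also give the contrast of the 3 transgenic plants with the 1 untransformed plant. Its single library is assumed to vary like the others, and what belongs to that plant cannot be told apart from transgenic status. With edgeR's quasi-likelihood test 2 of the 10 members passed the filter, Gy1 and Gy4. They passed only through the single untransformed library, in which they are high, so the filter itself required a difference and no p-value is given from that test; their counts above are the result. Over all 40884 genes tested, 25.8% were called lower and 23.3% higher in transgenic plants (47.4% of the calls were higher, or 57.5% with upper-quartile scaling), so a call in this contrast was common.

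Without the filter, the 5 members with a count in any library were tested against this 1 plant. The edgeR log2 fold change of transgenic over untransformed plants was then -6.87 for Gy1, -8.05 for Gy4, -6.43 for Gy5 and -3.14 for KTI3. No value is given for Gy3, which lay under the detection limit. With 0 counts in the transgenic libraries, the sizes for Gy4 and Gy5 are set by the fit and are not measured folds. Gy3, Gy4 and Gy5 had counts in the untransformed library only. Their direction was thus fixed once they were tested, and no p-value is given from this fit. The level of the untransformed plant lay above that of each transgenic plant at 5 of 10 members, and at 27.9% of all genes. Those members were Gy1, Gy4, Gy5, KTI3 and Gy3, the last with 2 counts, under the detection limit. The other 5 members were at 0 everywhere. The untransformed library was neither the deepest nor the shallowest of the 4.

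Detection in 1 library alone was then set against all genes. All 10 members had at most 3 counts in each transgenic library. Over all genes, 12753 did, of which 1037, or 8.13%, had over 3 counts in the untransformed library, beside 4 of 10 members. For the other libraries the same pattern was rarer over all genes. Of 12401 genes 5.52% had over 3 counts in tagged 1 only. The shares were 1.61% of 11908 in tagged 2 only and 1.97% of 11952 in the transgenic untagged plant only. Just 6 members could enter there, since the 4 above had over 3 counts in the untransformed library. Those 6 had 0 counts in every transgenic library, so their 0 is not a contrast with the 4 of 10. Within the 1037 genes the median count in the untransformed library was 8 and the highest 3675. Gy1 was above 900 of them and Gy4 above 834, while Gy5 and KTI3, at 9 and 8 counts, lay near the median. Genes sharing this pattern with the glycinins were therefore many, and no other gene is named as most like them, because the rule for that needed a member past the filter of the first test. Thinning all libraries to 27900266 counts left Gy1 at 35, Gy4 at 23, Gy5 at 7 and KTI3 at 7 counts in the untransformed library and 0 members detected in the other 3.

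**Figure D2:**
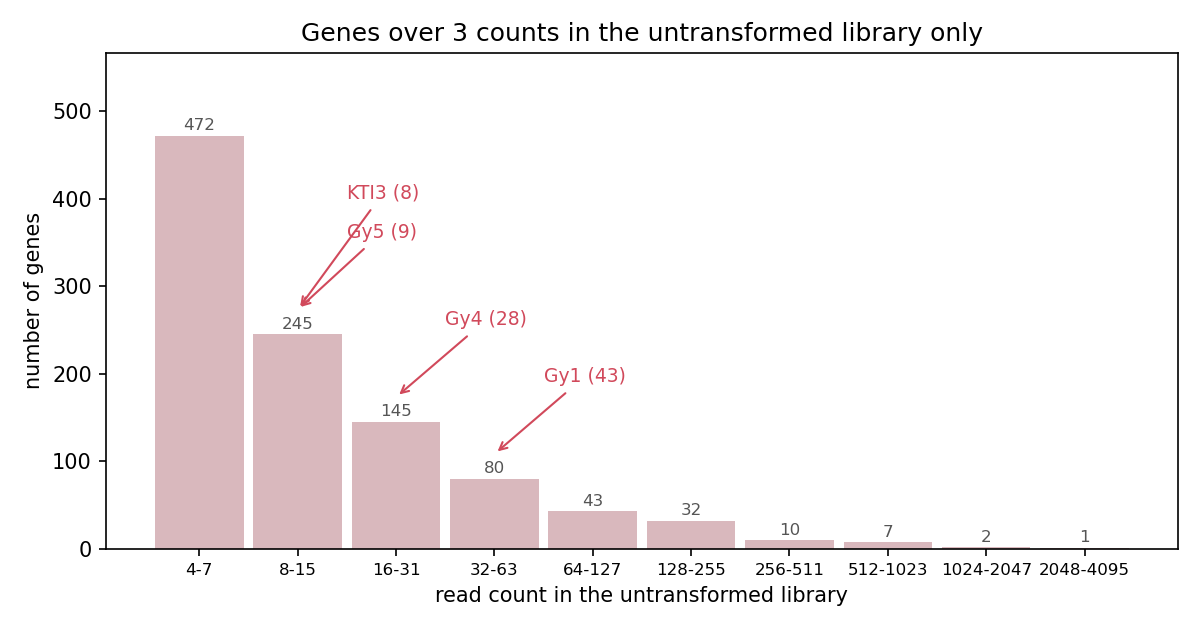
Read counts in the untransformed library of the 1037 genes that had over 3 counts there and at most 3 in each transgenic library; bars give the number of genes per range of counts, and arrows mark the 4 members with their counts. Gy5 and KTI3 lie in the range from 8 to 15 counts, which holds 245 genes, Gy4 in the next range and Gy1 in the range from 32 to 63, which holds 80.

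The genes numbered just beside the members were 28 identifiers 100 or 200 below or above them. Of these, 6 had 0 counts in all libraries, beside 8248 of all 56044 genes, and 22 had over 3 counts in at least 1 library. They carry no name in the tables used here. In the contrast of transgenic with untransformed plants 20 could be tested with edgeR, and 11 were called lower and 3 higher in transgenic plants, 55% and 15% against the 25.8% and 23.3% of all genes; neighbours on one chromosome are not independent. Of the 11 lower calls, 3 (Glyma.08G341300, Glyma.08G341400 and Glyma.20G148100) passed the filter only through the untransformed library, in which they are high, so these shares are set in part by the filter. With at least 10 counts required in 2 libraries, 17 neighbours were tested and 8 were called lower and 1 higher. The 3 higher calls were 1 under DESeq2 and without tagged replicate 1, and 5 with upper-quartile scaling. The median log2 fold change was -0.46 over the tested neighbours and 0.03 over all genes. Of the 14 called, 7 changed by less than 2-fold, from -0.86 to 0.86 on the log2 scale, and the other 7 were all lower in transgenic plants. Those 7 include the 3 that passed only through the untransformed library, whose direction the filter set. The share of all genes past 2-fold was not computed, so the 7 cannot be set against it.

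The KTI3 stretch held 4 of those 7. Glyma.08G341400, the identifier just before KTI3, had 0, 0 and 0 counts in transgenic plants, against 169 in the untransformed plant. Glyma.08G341300 had 3 and 1 counts in tagged plants and 0 in the transgenic untagged plant, against 79 in the untransformed plant. On the other side, Glyma.08G341600 had 1185 and 462 counts in tagged plants and 658 in the transgenic untagged plant, against 5867 in the untransformed plant, a log2 fold change of -3.31 ± 0.20 (edgeR adjusted p = 8.4e-05). Glyma.08G341700 had 366 and 129 counts in tagged plants and 86 in the transgenic untagged plant, against 2074 in the untransformed plant, a log2 fold change of -3.84 ± 0.39 (edgeR adjusted p = 5.1e-04). All 4 were thus high in the same library as KTI3, at counts above its 8.

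Beside the undetected beta-conglycinins, Glyma.20G148100 had 1 and 1 counts in tagged plants and 4 in the transgenic untagged plant, against 360 in the untransformed plant. The identifier after the run, Glyma.20G148500, had 0 counts in all 4 libraries. The untransformed library was thus high at the gene before the run and at 0 throughout it. The other 2 genes past 2-fold were Glyma.03G163600, which follows Gy1, and Glyma.02G012500, which precedes Le1. Glyma.03G163600 stood at 49 and 46 CPM in tagged plants and 48.4 CPM in the transgenic untagged plant, against 104 CPM in the untransformed plant (log2 fold change -1.38 ± 0.14, edgeR adjusted p = 4.5e-04). Glyma.02G012500 stood at 32.1 and 23.1 CPM in tagged plants and 12.8 CPM in the transgenic untagged plant, against 44.8 CPM in the untransformed plant, and its call (edgeR adjusted p = 0.0443) was lost without tagged replicate 2 (edgeR adjusted p = 0.0702) and with upper-quartile scaling (edgeR adjusted p = 0.0735).

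**Figure D3:**
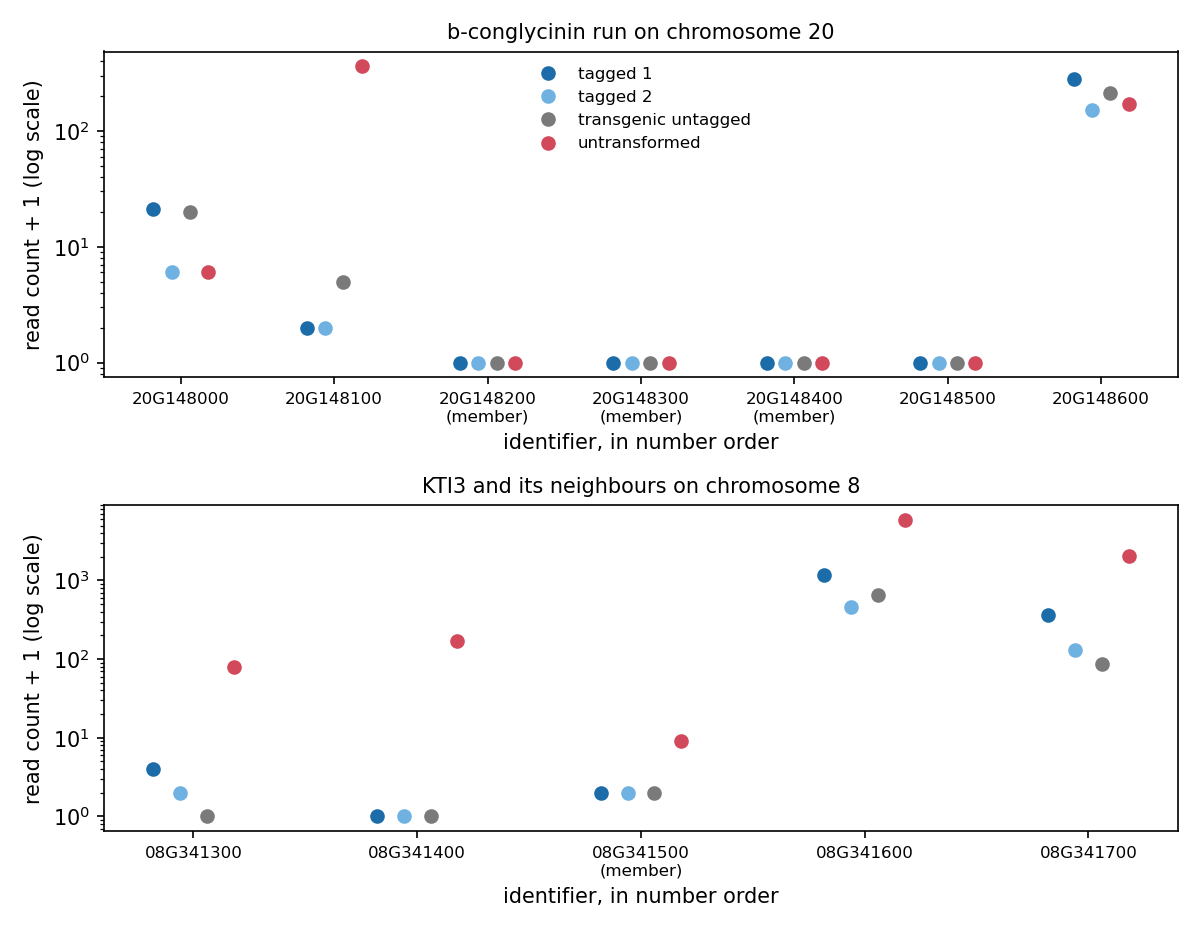
Read count + 1, on a log scale, of the genes numbered around the beta-conglycinin run and around KTI3, in each of the 4 libraries; counts are not scaled for depth, and members are marked. The 3 beta-conglycinins have 0 counts in all 4 plants beside Glyma.20G148100 at 360 counts in the untransformed plant, and all 5 genes of the KTI3 stretch are highest in the untransformed plant.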

How the data were processed

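The authors deposited a table of raw read counts per gene for the 4 libraries (56044 genes, 8248 at 0 in all), which was used, and a table of the same counts scaled per library, which was not. The submitters' processing notes name DESeq2, HTSeq 0.6.1, HISAT2 2.1.0 and CASAVA 1.8, with no roles. The genome build, annotation, strand setting and treatment of reads matching several genes are not given in any source used here. The members and lists were chosen with earlier results of these data known. CPM are counts over library totals. Intervals are exact 95% (Poisson for counts, conditional binomial for ratios; scipy 1.17.1) and cover counting error only.

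Both contrasts were fitted over the whole table with edgeR 4.0.16 (R 4.3.3; quasi-likelihood test, TMM, default filter by group, Benjamini-Hochberg at 0.05), after the code was tested on simulated data. SE is the absolute log2 fold change over the square root of F. The p-values measure the spread between these single plants. In the contrast with the untransformed plant, that spread comes from the transgenic plants alone. The most alike pair of libraries had a chi-square of 16.8 per degree of freedom, above counting noise, so none was counted as a repeat. The fits were repeated with limma-voom (limma 3.58.1), DESeq2 1.42.0, upper-quartile and RLE scaling, 2 other filters, the replicate block, transgenic status as a covariate, and leaving out libraries. Named genes are the 10 members and, narrowed after values were seen from all neighbours with over 3 counts, neighbours past 2-fold and 1 at 0 beside the beta-conglycinins. Lists by RefSeq product name, promoters and proteins were not analysed here.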

Additional observations from a re-analysis of the deposited data

How the results depend on the processing

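In the comparison of tagged with untagged plants, 0 members were called higher or lower under DESeq2 and with no filter, where 5 members were tested. With limma-voom, both other scalings and at least 10 counts in 2 libraries, 0 members were tested, so no call was possible. The same held with transgenic status as a covariate. The replicate block also had 0 members tested. Same-numbered plants had a correlation of deviations of -0.0489 over 38824 genes. This value could not show a pairing, since the untagged plants differed in transgenic status. Their chi-square per degree of freedom was 276, against 16.8 for the tagged pair. The numbers were not treated as pairs. Leaving out 1 library gave 0 to 2 lower members. The 2 were Gy1 and Gy4 without untagged replicate 1, where the untransformed plant is the only control and 10419 genes in all were called lower. No paired analysis was possible for transgenic against untransformed plants, since there is 1 untransformed plant. There, the count of lower members rests on which genes the filter lets in through that plant, which no setting leaves out: it was 2 with the default filter, 4 with no filter and 0 with at least 10 counts in 2 libraries, where 0 members could be tested. Other tools and scalings and leaving out transgenic libraries gave 2 and say nothing of its stability. Of 76 values of 9 single genes under these alternatives, 74 kept their direction and side of the threshold and 2 lost the call, Glyma.02G012500 without tagged replicate 2 and with upper-quartile scaling; 5 of the 9 genes (Gy1, Gy4 and 3 neighbours) were tested only through the untransformed plant. The neighbours called higher in transgenic plants numbered 1 under DESeq2, 5 with upper-quartile scaling, 1 with at least 10 counts in 2 libraries and 1 to 2 without each transgenic library; those called lower stayed within 8 to 11 (counts added after seeing the data). Counting a gene as detected from 1 count gave 2, 1 and 1 members in tagged 1, tagged 2 and the transgenic untagged plant, against 5 in the untransformed plant, and from 10 counts 0, 0 and 0, against 2. At this depth a gene with 0 counts has an exact upper bound of 0.075 to 0.132 CPM, and Gy3, with 2 counts in the untransformed library, one of 0.211 CPM. One untransformed plant limits every contrast with it.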
